A study of Mus musculus with 20 samples.

Results

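The noncoding RNAs described here are 8 small nucleolar RNA (snoRNA) host genes, Snhg1, Snhg3, Snhg5, Snhg6, Snhg8, Snhg12, Gas5 and Dancr, and 2 abundant nuclear transcripts, Malat1 and Neat1. They were taken by gene name, which gave 10 rows of the 54986 in the table. NMuMG is an epithelial line from the normal mouse mammary gland, and RNA from 10 conditions was sequenced in 2 libraries each. One set of 10 libraries, called the progression set here, held untreated NMuMG cells, NMuMG cells treated with TGFβ, NMuMG cells that carry an shRNA against hnRNP E1 (gene Pcbp1, the E1KD line), and the M1P and L1P lines. Those last 2 lines were grown out from a primary tumor and from lung metastases that E1KD cells had formed in the mammary fat pad of NOD/SCID mice, so they carry the same hnRNP E1 shRNA. The other set of 10, called the construct set, held NMuMG cells with an empty vector, NMuMG clones 12 and 16 that overexpress Platr18, and E1KD cells with a scrambled shRNA (SCR) or with an shRNA against Platr18 (Platr18 KD). Both E1KD lines of the construct set also carry the hnRNP E1 shRNA. Each overexpressing line is a single clone, and the labels do not say that the replicates were separate cultures, so the p-values measure only the spread between these libraries.

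A snoRNA host gene is a transcription unit whose introns hold snoRNAs, small guides that direct methylation or pseudouridylation of ribosomal and spliceosomal RNA. The introns are processed into snoRNAs, and the spliced exons leave the nucleus as a noncoding RNA. Many hosts start in a tract of pyrimidines like that of ribosomal protein genes, which ties their translation to growth signals, and several spliced hosts are known substrates of nonsense-mediated decay. Gas5 was named for its rise in growth-arrested cells, and Dancr for its effect on progenitor differentiation. Malat1 sits in nuclear speckles and has a stabilized triple-helical end in place of a poly(A) tail. Neat1 is the scaffold of paraspeckles and is made as a short polyadenylated and a long form.

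Values are read counts scaled to a common library size (CPM, reads of a gene per 1 M, or mega, reads), and differences are in log2(CPM + 1) from 1 limma fit of the 20 libraries. A gene passed the test at a Benjamini-Hochberg adjusted p under 0.05 over 17106 genes, those that reached 1 CPM in 2 or more of the libraries. All 10 members did so. The CPM were scaled to a depth of 50.8 to 60.0 M reads in the progression set and 63.0 to 147 M reads in the construct set. Hence 3 reads were worth 0.05 to 0.0591 CPM in a progression library and between 0.0204 and 0.0477 CPM in a construct library. Silencing was seen in both sets: Pcbp1 was at 16.6 and 14.2 CPM in E1KD against 287 and 312 CPM in NMuMG, and at 3.28 and 3.46 CPM in E1KD SCR against 32.3 CPM in both empty vector libraries. The 2 sets were different kinds of library: the mitochondrial ribosomal RNA mt-Rnr2 had 333 to 492 CPM in the progression set and 113874 to 165149 CPM in the construct set. Members were therefore compared first within each set. Of the epithelial markers, Cdh1, Krt8, Krt18 and Ocln were detected in every library, and Epcam was at or near 0 in all 20. E1KD replicate 1 was higher than replicate 2 across the genes tested, with a median log2 ratio of 0.29.

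The members lie on 6 chromosomes (GRCm38). Snhg12 (chromosome 4, 132308623 to 132311024, plus strand) and Snhg3 (chromosome 4, 132348014 to 132353686, minus strand) are separated by 36989 bases and are transcribed from opposite strands. Malat1 (chromosome 19, 5795690 to 5802672) and Neat1 (chromosome 19, 5824708 to 5845478) are neighbours on the minus strand, with 22035 bases between them. Gas5 (chromosome 1, 161034422 to 161038539, plus strand) holds 10 snoRNA rows inside its span, Snhg1 (chromosome 19, 8723475 to 8726443, plus strand) 8 and Snhg12 5. Snhg3 and Snhg5 (chromosome 9, 88521050 to 88522929, minus strand) hold 2 each, and Snhg6 (chromosome 1, 9941959 to 9944118, minus strand), Snhg8 (chromosome 3, 123507552 to 123508404, minus strand) and Dancr (chromosome 5, 74093060 to 74095406, plus strand) hold 1 each. Malat1 (ENSMUSG00000092341.2) and Neat1 (ENSMUSG00000092274.2) hold none. The identifiers of the hosts are ENSMUSG00000108414.1 for Snhg1, ENSMUSG00000085241.7 for Snhg3, ENSMUSG00000097195.9 for Snhg5, ENSMUSG00000098234.7 for Snhg6, ENSMUSG00000104960.1 for Snhg8, ENSMUSG00000086290.9 for Snhg12, ENSMUSG00000053332.13 for Gas5 and ENSMUSG00000106943.2 for Dancr.

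RefSeq start sites (GRCm38.p6) were at hand for 8 of the 10 members. Snhg6 and Neat1 were not matched. The windows below run from 50 bases before the start to 50 bases from it, and are shown because hosts that moved together can be compared at the place where the pyrimidine tract and the TATA box would lie. Capitals mark the letters TATA where they begin 20 to 40 bases before the start, and a pyrimidine run, here a C that lies within 10 bases of the start and is followed by at least 4 letters that are C or T. Only the transcribed strand was searched, and the 2 motifs do not overlap.
Gas5 downstream start (chr1:161035116-161035215, plus strand): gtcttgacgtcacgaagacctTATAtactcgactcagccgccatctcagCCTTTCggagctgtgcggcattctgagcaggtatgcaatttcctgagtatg
Snhg12 (chr4:132308628-132308727, plus strand): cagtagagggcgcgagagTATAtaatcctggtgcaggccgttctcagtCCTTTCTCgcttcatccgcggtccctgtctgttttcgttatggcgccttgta
Snhg8 (chr3:123508287-123508386, minus strand): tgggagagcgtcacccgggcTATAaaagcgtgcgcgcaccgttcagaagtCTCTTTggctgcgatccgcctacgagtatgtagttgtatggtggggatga
Snhg5 (chr9:88522848-88522947, minus strand): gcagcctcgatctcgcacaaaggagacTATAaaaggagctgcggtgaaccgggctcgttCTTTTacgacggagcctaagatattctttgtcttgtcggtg
Snhg1 (chr19:8723437-8723536, plus strand): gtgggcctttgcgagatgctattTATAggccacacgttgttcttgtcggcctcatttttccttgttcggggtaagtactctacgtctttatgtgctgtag
Snhg3 (chr4:132353637-132353736, minus strand): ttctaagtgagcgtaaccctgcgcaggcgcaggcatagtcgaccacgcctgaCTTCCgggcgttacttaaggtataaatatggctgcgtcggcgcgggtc
Gas5 upstream start (chr1:161034551-161034650, plus strand): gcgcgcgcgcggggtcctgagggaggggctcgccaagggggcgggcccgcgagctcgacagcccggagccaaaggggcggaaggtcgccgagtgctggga
Dancr (chr5:74093010-74093109, plus strand): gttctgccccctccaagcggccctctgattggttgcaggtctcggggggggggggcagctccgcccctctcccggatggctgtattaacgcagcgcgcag
Malat1 (chr19:5802623-5802722, minus strand): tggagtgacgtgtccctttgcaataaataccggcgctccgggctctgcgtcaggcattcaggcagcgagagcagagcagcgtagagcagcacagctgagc
TATA stood in 5 of these 9 windows, those of Snhg12, Snhg8, Snhg5, Snhg1 and the downstream start of Gas5, against 5.81% of the 32851 RefSeq windows of the mouse. A pyrimidine run stood in 5 of the 9, against 29.7% of all windows, and 4 windows held both, against 1.80% of all. Dancr, Malat1 and the upstream start of Gas5 held neither within these limits. A match is a run of letters, not a measured start or a bound factor.

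**Figure D1:**
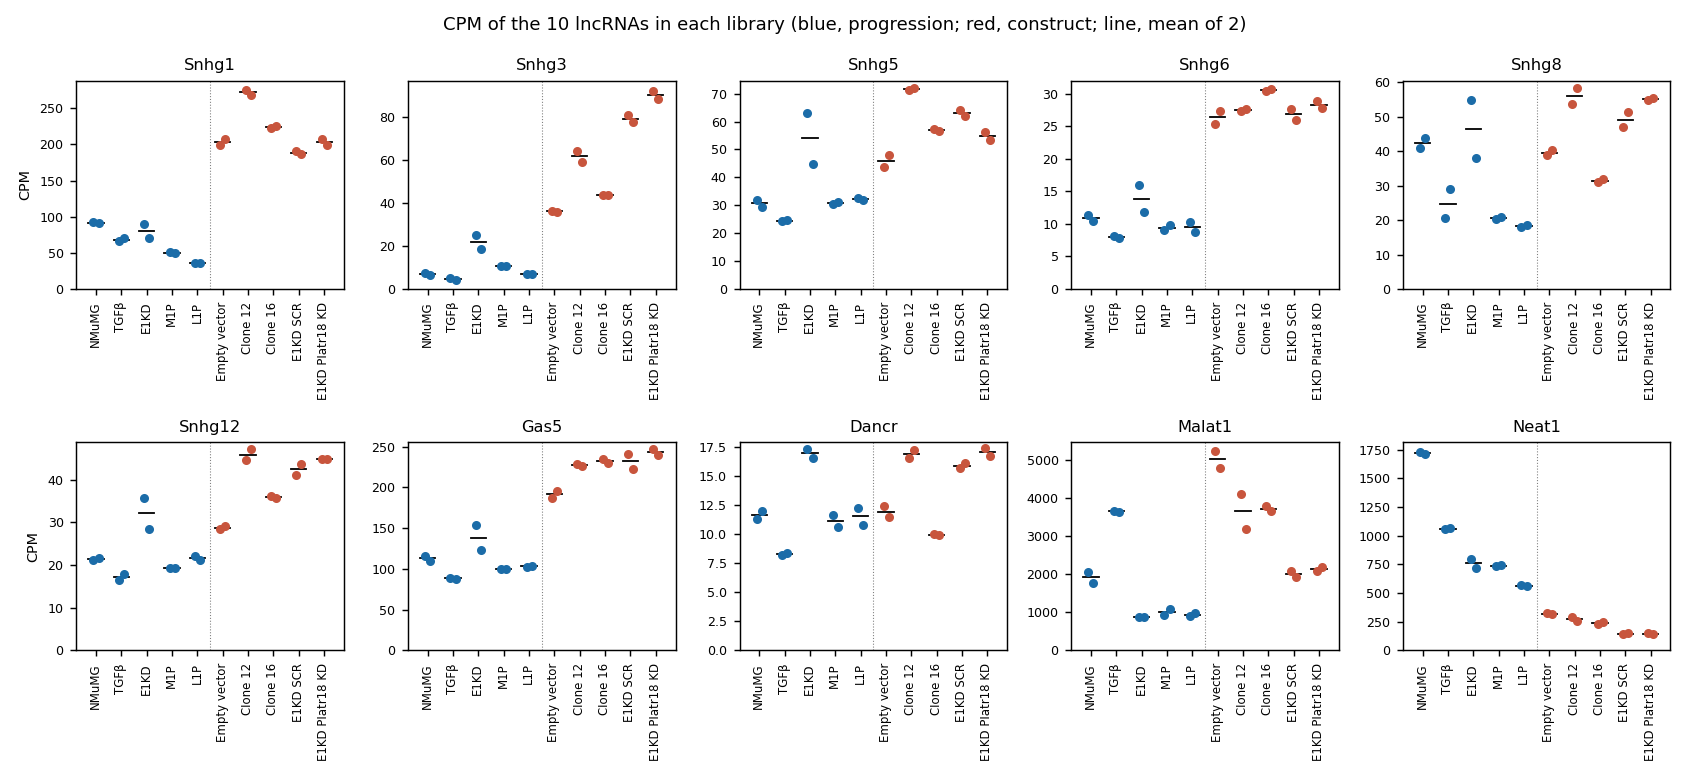
CPM of each member (vertical axis, linear, from 0) in the 10 conditions (horizontal axis), with 1 point per library and a line at the mean of 2; blue is the progression set and red the construct set. E1KD has the highest mean of its set for 7 of the 8 hosts, Neat1 is at 1712 CPM or more in NMuMG and at 149 CPM or less in the E1KD lines of the construct set.

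The first comparison was between NMuMG cells with and without TGFβ, the cytokine used to induce the epithelial-mesenchymal transition. All 8 hosts fell, Neat1 fell and Malat1 rose, so that 10 of 10 members passed the test, against 55.4% of all genes tested (33.6% lower). None of them met stricter limits, an unadjusted p under 0.001 with a log2 difference of at least 1, which 13.5% of all genes met. Malat1 had 2058 and 1764 CPM in NMuMG and 3658 and 3628 CPM after TGFβ, a 1.91-fold higher mean. Neat1 had 1734 and 1712 CPM in NMuMG and 1055 and 1066 CPM after TGFβ, a mean 1.62-fold lower. The 2 neighbouring nuclear transcripts thus moved apart, by 0.93 (standard error 0.11, adjusted p = 5.6e-06) and -0.70 (standard error 0.074, adjusted p = 1.4e-06) on the log2 scale, and for neither did the libraries of the conditions overlap. The ratio of Malat1 to Neat1 within a library, which no scaling can change, was 1.03 and 1.19 in NMuMG and 3.40 and 3.47 after TGFβ.

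Among the hosts, the largest fall after TGFβ was that of Snhg8, the host of Snora24, from 40.8 and 43.7 CPM to 20.6 and 28.9 CPM. Its log2 difference was -0.77 (standard error 0.15), and the libraries of the treated cells were themselves far apart. Snhg3 fell from 7.32 and 6.56 CPM to 4.89 and 4.21 CPM. Gas5 fell from 115 and 110.0 CPM to 89.1 and 88.0 CPM, Snhg1 from 92.2 and 91.4 CPM to 65.8 and 70.1 CPM, and Dancr from 11.3 and 12 CPM to 8.23 and 8.38 CPM. Snhg5, Snhg6 and Snhg12 fell by 0.32, 0.40 and 0.30 on the log2 scale. The treated libraries lay below the untreated ones for every host. The median log2 difference of the 8 hosts was -0.42, beside -0.08 over all genes tested. With the library sums, the protein-coding sums or a median of ratios as the scale, all 10 members kept their direction and passed. These are bulk libraries, in which fewer cells of a type and less RNA per cell cannot be told apart. Summed levels of 5 mesenchymal markers (Vim, Fn1, Cdh2, Snai1 and Zeb1) were 530.0 to 551 CPM in NMuMG and 1339 to 1551 CPM after TGFβ, and their part in these values was not tested.

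Lists of other genes, picked by name, were also counted, and their action on the members was not tested. Of 10 nonsense-mediated decay factors, 7 fell after TGFβ and none rose, beside 33.6% and 21.8% of all genes. The largest falls were those of Smg9 (log2 difference -0.92), Smg5 (-0.71) and Upf3b (-0.58). Of 12 paraspeckle proteins, 7 fell and none rose, among them Rbm14 (-0.76) and Sfpq (-0.56), a core paraspeckle protein. Of 8 other rows tested as lncRNA hosts, 3 fell (Snhg7os, Zfas1 and Snhg20) and Snhg14 rose by 0.45. This list was taken by names that start with Snhg, with Zfas1 and Epb41l4aos added. Whether each of its rows holds a snoRNA was not checked. Of 6 other nuclear lncRNAs, Firre and Tug1 rose and Xist fell.

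**Figure D2:**
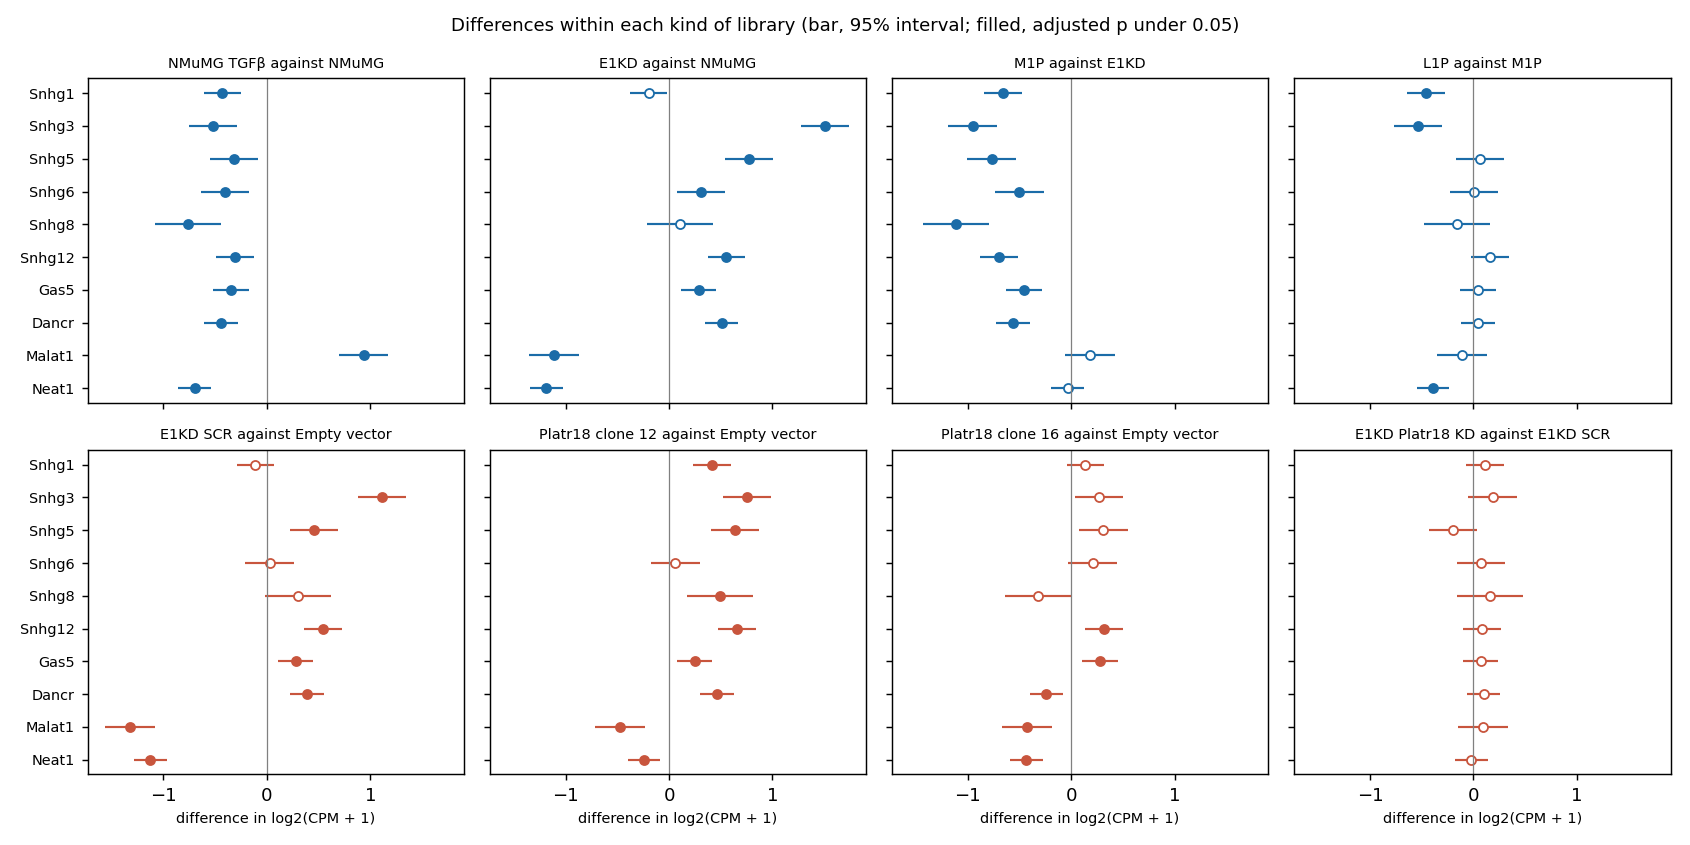
Difference in log2(CPM + 1) for each member (horizontal axis) in 8 comparisons within a set, with its 95% interval; filled points passed the test and open points did not. The hosts lie left of 0 after TGFβ and in M1P against E1KD, and Malat1 and Neat1 lie about 1 unit or more left of 0 in both comparisons of hnRNP E1 silencing.

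Silencing of hnRNP E1 was measured once in each set, against NMuMG in the progression set and against the empty vector in the construct set. In the construct set the lines also differ in their second construct, a scrambled shRNA against an empty vector. The label of NMuMG names no control shRNA. Silencing and these constructs cannot be told apart here. The same 7 members passed in the same direction in both comparisons, 5 hosts higher (Snhg3, Snhg5, Snhg12, Gas5 and Dancr) and both nuclear transcripts lower. Over all genes tested 30% did so. In the progression set 8 of 10 members passed, against 56.6% of all genes (39.6% higher and 17.1% lower), and in the construct set 7 of 10, against 42.6% (23% higher and 19.6% lower). By the stricter limits 3 members passed in each set, Snhg3, Malat1 and Neat1, beside 9.44% and 5.98% of all genes. The comparisons share no library with each other, while the first uses the NMuMG libraries that TGFβ was compared with. Markers moved as well: 5 of 5 mesenchymal markers rose in E1KD (Fn1 by 3.76 and Snai1 by 2.00) and 4 of 5 in E1KD SCR (Fn1 by 1.75). Of 4 epithelial markers tested, the junction genes Ocln and Cdh1 fell in both, and 1 other rose in E1KD. The summed mesenchymal level was 1333 to 1812 CPM in E1KD against 530.0 to 551 CPM in NMuMG. In E1KD SCR it was 751 to 816 CPM against 642 to 681 CPM with the empty vector. The summed epithelial level was 2397 to 3363 CPM in E1KD around the 2460 to 2494 CPM of NMuMG. In E1KD SCR it was 2214 to 2437 CPM against 2709 to 2971 CPM with the empty vector. The part of these marker levels in the members' values was not tested.

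Malat1 had 885 and 881 CPM in E1KD against 2058 and 1764 CPM in NMuMG, and 2072 and 1922 CPM in E1KD SCR against 5229.8 and 4789 CPM with the empty vector. The means were 2.16-fold and 2.51-fold lower, with log2 differences of -1.11 (standard error 0.11) and -1.33 (standard error 0.11). Neat1 had 794 and 722 CPM in E1KD against 1734 and 1712 CPM in NMuMG, and 144 and 149 CPM in E1KD SCR against 328 and 313 CPM with the empty vector. The means were 2.27-fold and 2.19-fold lower (log2 differences -1.19 and -1.12, standard error 0.074 for both). None of these groups overlapped. The ratio of Malat1 to Neat1 was 1.12 and 1.22 in E1KD beside 1.03 and 1.19 in NMuMG, which overlap, and 12.9 and 14.4 in E1KD SCR beside 15.3 and 15.9 with the empty vector, which do not.

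Snhg3, the host of the H/ACA snoRNAs Snora73a and Snora73b, had the largest rise among the hosts in both sets. It had 25.1 and 18.5 CPM in E1KD against 7.32 and 6.56 CPM in NMuMG, and 80.7 and 77.8 CPM in E1KD SCR against 36.1 and 36.0 CPM with the empty vector. The log2 differences were 1.51 (standard error 0.11, adjusted p = 3.4e-08) and 1.11 (standard error 0.11, adjusted p = 1.3e-06). Snhg12 had 35.7 and 28.5 CPM in E1KD against 21.1 and 21.7 CPM in NMuMG, and 41.1 and 43.7 CPM in E1KD SCR against 28.4 and 29.1 CPM with the empty vector. Snhg5, the host of Snord50a and Snord50b, rose by 0.77 in E1KD and by 0.46 in E1KD SCR, and Dancr, which holds Snora26, by 0.51 and 0.38. Gas5 rose by 0.29 and 0.28, from 115 and 110.0 CPM to 153 and 124 CPM in the progression set and from 186 and 196 CPM to 241 and 223 CPM in the construct set.

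The other 3 hosts passed in at most 1 of the comparisons. Snhg6 rose in E1KD (15.9 and 11.8 CPM against 11.3 and 10.5 CPM, log2 difference 0.31) and did not pass in E1KD SCR (27.7 and 26.0 CPM against 25.4 and 27.3 CPM, log2 difference 0.03). Snhg8 passed in neither set, with 54.9 and 37.9 CPM in E1KD around the 40.8 and 43.7 CPM of NMuMG. Snhg1 had 90.2 and 70.7 CPM in E1KD against 92.2 and 91.4 CPM in NMuMG, and 191 and 187 CPM in E1KD SCR against 199.6 and 208 CPM with the empty vector. Its log2 differences of -0.20 (95% interval -0.38 to -0.02) and -0.11 (95% interval -0.29 to 0.07) did not pass.

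E1KD replicate 1 bears on these values. In the table as deposited the median log2 difference of all genes between E1KD and NMuMG was 0.17, and the other scalings shifted that median by -0.24 to -0.18. Under each of them Snhg3, Snhg5, Snhg12 and Dancr remained higher, Malat1 and Neat1 lower, Gas5 and Snhg6 did not pass, Snhg1 passed as lower (by 0.38 to 0.44) and Snhg8 turned to a negative difference that did not pass. Without E1KD replicate 1, Gas5 was higher by 0.13 and Snhg1 lower by 0.37, and Snhg6 did not pass. In the fit of E1KD and NMuMG alone, 3 members passed, Snhg3, Malat1 and Neat1. In the construct set the scalings shifted the median by at most 0.02. The 7 members passed under each of them, and Snhg8 then also passed as higher, by 0.29 to 0.33. Snhg1 passed as lower, by 0.12, under the median of ratios and the protein-coding sums.

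Whether the difference at hnRNP E1 silencing itself differed between the sets was tested as an interaction. This interaction also carries the difference between the second constructs of the construct set. By limma 0 of 10 members passed, against 21.3% of all genes, and 1 member, Snhg3, had an unadjusted p under 0.05. The estimates ran from -0.39 for Snhg3 to 0.20 for Snhg8, with 95% intervals between -0.72 and 0.65 over the 10 members, so differences of up to that size could have gone undetected. The result moved with the E1KD libraries: under the other scalings 3 or 4 hosts passed as positive (Snhg1, Snhg8 and Snhg12 under each, Gas5 under both scalings by sums), without E1KD replicate 1 Snhg1 and Snhg8 passed as positive, and without replicate 2 Snhg3, Snhg5, Snhg6 and Gas5 passed as negative.

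Of the lists counted beside the members, 5 of 10 nonsense-mediated decay factors rose and 2 fell in E1KD, and 3 rose and 1 fell in E1KD SCR. The shares over all genes were 39.6% and 17.1% in the former and 23% and 19.6% in the latter, and the E1KD counts are on the deposited scale, on which the median gene was 0.17 higher in E1KD. Smg8 was among the largest rises in both (0.75 and 0.43), and Upf1, the helicase of the pathway, had 51.0 and 29.0 CPM in E1KD against 19.6 and 21.9 CPM in NMuMG. Of the paraspeckle proteins, 7 of 12 rose and 2 fell in E1KD, and 1 rose and 3 fell in E1KD SCR. Pspc1 fell in both, by 0.70 and 0.51. Among other hosts, Snhg4 rose in both, by 0.74 and 0.58, and among other nuclear lncRNAs Airn and Firre fell in both.

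The lines that came from tumors were compared with the injected E1KD line and with each other. All 8 hosts were lower in M1P than in E1KD, and neither Malat1 nor Neat1 passed, so 8 of 10 members passed against 49.1% of all genes (37% lower). By the stricter limits Snhg8 alone passed, 1 of 10 against 3.59% of all genes. E1KD is shared with the comparison against NMuMG. Snhg8 had 20.3 and 20.9 CPM in M1P against 54.9 and 37.9 CPM in E1KD, and Snhg3 had 10.5 and 10.8 CPM against 25.1 and 18.5 CPM. Snhg5 had 30.5 and 31.1 CPM against 62.9 and 45 CPM, beside 32.0 and 29.5 CPM in NMuMG. Gas5, with 100.2 and 99.4 CPM, showed the smallest fall (log2 difference -0.46). The M1P libraries lay below both E1KD libraries for each host. The median over the hosts was -0.68, beside -0.17 over all genes.

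Without E1KD replicate 1 the 8 hosts still passed, with log2 differences of -0.30 to -0.85, and they passed under each other scaling. In the fit of M1P and E1KD alone 0 of 10 passed. Malat1 had 934 and 1079.9 CPM in M1P against 885 and 881 CPM in E1KD (log2 difference 0.18, 95% interval -0.06 to 0.43), and passed as higher, by 0.36 to 0.40, under the other scalings. Neat1 had 738 and 741 CPM in M1P against 794 and 722 CPM in E1KD, with overlapping libraries (log2 difference -0.03, 95% interval -0.19 to 0.12). Under the other scalings its difference was positive, 0.14 to 0.18, and did not pass. Beside the hosts, 7 of 10 nonsense-mediated decay factors and 9 of 12 paraspeckle proteins fell and none rose, beside 37% of all genes that fell. Xist, at 857 and 758 CPM in E1KD, was at 0.0698 and 0.0354 CPM in M1P. Of 7 markers of leukocytes, endothelium and red cells, summed levels were 2.29 to 3.58 CPM in E1KD, 5.87 to 6.53 CPM in M1P and 6.81 to 7.09 CPM in L1P. Ptprc, Pecam1 and Cdh5 were at 0.256 CPM or less and Hbb-bs at 0 in these libraries, and 1 of the 2 markers tested, Lyz2, was higher in M1P. The part of these moves in the fall of the hosts was not tested.

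Between L1P and M1P, 3 of 10 members passed, all lower in L1P, against 18.5% of all genes (7.3% lower). None met the stricter limits, which 1.21% of all genes met. Snhg1 had 36.2 and 36.3 CPM in L1P against 51.1 and 49.4 CPM in M1P (log2 difference -0.46). Snhg3 had 7.18 and 6.86 CPM against 10.5 and 10.8 CPM (-0.54), and Neat1 had 569 and 558 CPM against 738 and 741 CPM (-0.39). The libraries of the 2 lines did not overlap for these 3 genes. The other 7 members had differences from -0.16 to 0.16. Snhg1, Snhg8 and Neat1 had their lowest levels of the progression set in L1P, though Snhg8 did not pass between L1P and M1P. Ranked by level, Neat1 was highest in NMuMG, then after TGFβ, then in E1KD and M1P, and lowest in L1P. The libraries of E1KD and M1P overlapped, and those of the other neighbours in this order did not. This is an order of levels, since TGFβ-treated cells and E1KD each came from NMuMG. Of the 8 other lncRNA hosts, 0 passed by limma.

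**Figure D3:**
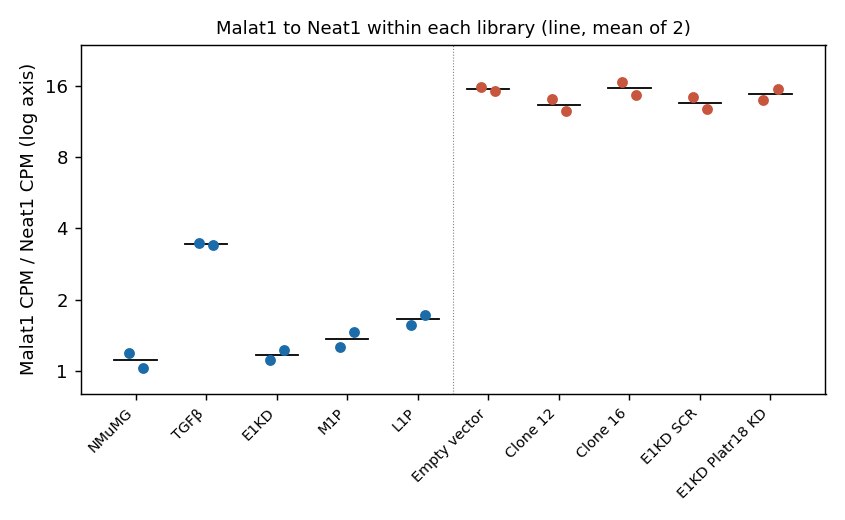
Ratio of Malat1 CPM to Neat1 CPM in each library (vertical axis, log scale) by condition, with a line at the mean of 2. The progression libraries lie between 1.03 and 1.73 except the 2 after TGFβ, at 3.40 and 3.47, and the construct libraries lie between 12.6 and 16.7.

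Platr18 overexpression was compared with the empty vector, clone by clone, since the clones are the independent lines and share their control. In clone 12, 7 hosts were higher and both nuclear transcripts lower, 9 of 10 members against 39.6% of all genes (18.1% higher). In clone 16, Gas5 and Snhg12 were higher and Dancr, Malat1 and Neat1 lower, 5 of 10 against 23.2%. Platr18 itself, listed as Lncenc1, had 3092 and 3096 CPM in clone 12, 813 and 819.8 CPM in clone 16 and 3.68 and 3.06 CPM with the empty vector. For the mean of the clones, 7 of 10 members passed, against 28.8% of all genes, and without empty vector replicate 1 4 did (Snhg3, Snhg5, Snhg12 and Neat1). No member met the stricter limits in clone 12 (3.65% of all genes), in clone 16 (1.78%), in their mean (1.46%) or between the clones (4.38%).

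Snhg12 had 44.5 and 47.2 CPM in clone 12, 36.2 and 35.7 CPM in clone 16 and 28.4 and 29.1 CPM with the empty vector, and passed in both clones (log2 differences 0.66 and 0.31). Gas5 had 228 and 226 CPM in clone 12 and 234 and 230.1 CPM in clone 16 against 186 and 196 CPM. Snhg3 had 64.1 and 59.3 CPM in clone 12 and 43.7 and 43.6 CPM in clone 16 against 36.1 and 36.0 CPM, and passed in clone 12 alone. Malat1 had 4101 and 3184 CPM in clone 12 and 3779 and 3641 CPM in clone 16 against 5229.8 and 4789 CPM (log2 differences -0.47 and -0.43). Neat1 had 291 and 253 CPM in clone 12 and 226 and 248 CPM in clone 16 against 328 and 313 CPM (-0.24 and -0.44). Both nuclear transcripts were below the empty vector in all 4 libraries of the clones. Leaving out any one of the 4 libraries of the clone 16 comparison left 1 or 2 members, Neat1 in each case and Malat1 in 2 of them, and the other scalings gave 8 to 10. Without clone 12 replicate 2, 5 members passed in clone 12, all of them hosts.

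The clones also differed from each other, with 6 hosts and Neat1 lower in clone 16, 7 of 10 members against 42.5% of all genes (18.9% lower). Snhg3, Snhg8, Snhg12 and Dancr passed with any one library left out, and 4 members without clone 12 replicate 1 or clone 16 replicate 1. Dancr had 10.0 and 9.91 CPM in clone 16 against 16.6 and 17.3 CPM in clone 12 (log2 difference -0.71, standard error 0.076, adjusted p = 4.4e-06), on opposite sides of the 12.5 and 11.5 CPM of the empty vector. Snhg8 had 31.1 and 31.8 CPM in clone 16 and 53.7 and 58.3 CPM in clone 12, also on opposite sides of the empty vector at 38.7 and 40.2 CPM. Xist was at 0.0554 and 0.182 CPM in clone 16 and at 237 and 209.9 CPM in clone 12. Gas5, Snhg6 and Malat1 did not pass between the clones, with 95% intervals of the difference of -0.14 to 0.20, -0.09 to 0.38 and -0.20 to 0.28. Of the 6 snoRNAs inside members that were tested, 3 were higher in the mean of the clones than with the empty vector and 0 lower. These were Snora73a, Snora73b and Snora26, by 0.41, 0.52 and 0.27, and 28.8% of all genes passed in either direction. Snora73a and Snora73b were above the empty vector in every library of both clones. Snora26 had 1.84 and 2.08 CPM in clone 12. In clone 16 it had 1.09 and 1.36 CPM, which overlapped the 1.03 and 1.23 CPM of the empty vector.

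Silencing of Platr18 in E1KD cells moved none of the members past the test by limma, 0 of 10 against 19.5% of all genes, and 0 had an unadjusted p under 0.05. Lncenc1 fell from 2.92 and 3.10 CPM in E1KD SCR to 0.136 and 0.170 CPM. Its level in E1KD SCR overlapped the 3.68 and 3.06 CPM of the empty vector. In the progression set E1KD had 17.9 and 14.6 CPM, against 1.24 and 1.45 CPM in NMuMG. Silencing thus started from a Platr18 level near that of the empty vector. Malat1 had 2078 and 2190.1 CPM against 2072 and 1922 CPM, Neat1 148 and 141 CPM against 144 and 149 CPM, and Gas5 247 and 239.9 CPM against 241 and 223 CPM. The differences ran from -0.20 for Snhg5 to 0.19 for Snhg3, and the 95% intervals of the 10 members lay between -0.43 and 0.48, which leaves changes of up to that size undetected. Under other settings 1 to 3 members passed: Snhg5 as lower by 0.19 to 0.20 in 3 of them, and Snhg3, Snhg1 or Snhg12 as higher by 0.12 to 0.25.

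**Figure D4:**
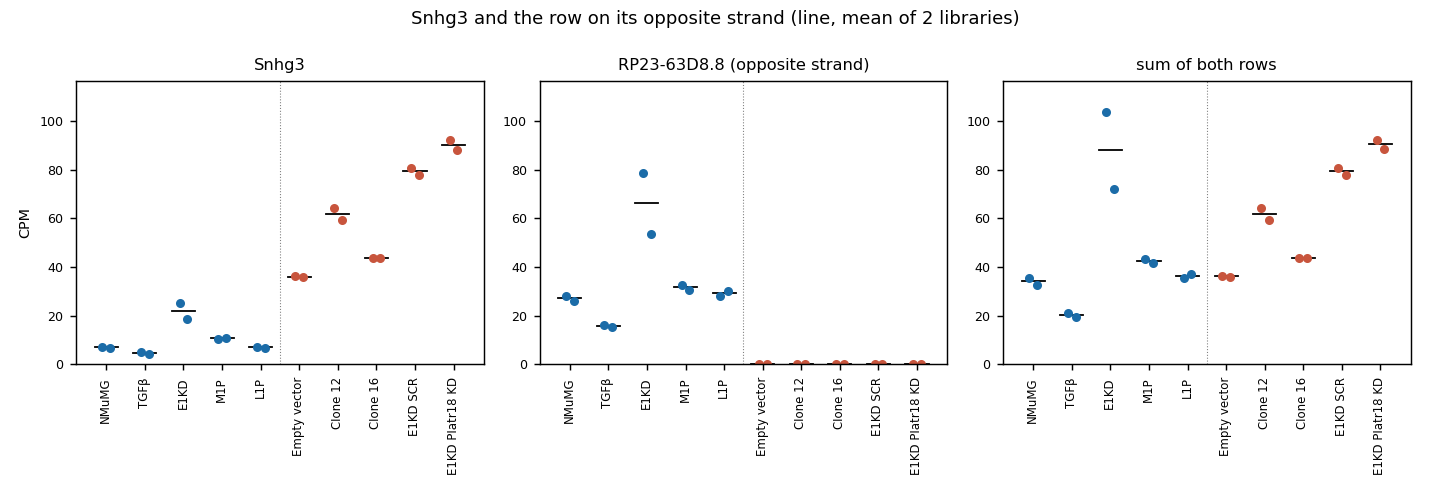
CPM (vertical axis) of Snhg3, of RP23-63D8.8, the row on its opposite strand, and of their sum, in each library by condition; lines are means of 2. RP23-63D8.8 is above 15 CPM in every progression library and below 0.14 CPM in every construct library, and the sum in NMuMG is close to that with the empty vector.

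The row on the opposite strand of Snhg3 had reads in the progression set and almost none in the construct set. RP23-63D8.8 (chromosome 4, 132351772 to 132353382, plus strand) runs opposite to Snhg3, and its exons cover 705 of the 986 exonic bases of Snhg3 and most of the 2 Snora73 genes. In NMuMG the row had 28.3 and 26.0 CPM and after TGFβ 16 and 15.2 CPM. It was highest in E1KD, at 78.5 and 53.6 CPM, and lower again in M1P (32.7 and 30.7 CPM) and L1P (28.1 and 30.1 CPM). In the 10 construct libraries it had 0.0307 to 0.134 CPM. In the table as a whole, 205 rows of the antisense type had a mean over 1 CPM in the progression libraries and 89 in the construct libraries. Strand use in the library preparation and in the counting is not given in the sources used here, so Snhg3 and RP23-63D8.8 cannot be told apart in the progression set.

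The sum of the 2 rows was 35.6 and 32.6 CPM in NMuMG and 36.2 and 36.1 CPM with the empty vector. Within the progression set the sum gave the calls of Snhg3 alone in all but 1 comparison. It was lower after TGFβ (-0.73), higher in E1KD (1.32) and lower in M1P (-1.01), whereas between L1P and M1P it did not pass (-0.22, adjusted p = 0.24). In the construct set RP23-63D8.8 had at most 0.134 CPM. The sum there was nearly Snhg3 itself, so its 1.11 in E1KD SCR was no separate check. Between the sets the log2 difference between the empty vector and NMuMG was 2.22 for Snhg3 alone and 0.08 for the sum (adjusted p = 0.54). Both values are on the deposited scale. For all genes in that comparison, equal library sums gave a shift of -0.48, protein-coding sums -0.19 and the median of ratios -0.02. Rcc1, which encodes a nucleotide exchange factor for Ran, shares 5592 bases of the span of Snhg3 on the same strand. It had 35.1 and 36.3 CPM in NMuMG and 32.5 and 33.9 CPM with the empty vector. Over all conditions it had 15.7 to 86.4 CPM in the progression set and 32.5 to 65.3 CPM in the construct set. How reads were divided between Rcc1 and Snhg3 was not tested. Other rows on the opposite strand of a member were Zbtb37, which shares 428 bases with Gas5 and had 17.4 to 41.8 CPM, and 4 rows with at most 0.354 CPM.

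**Figure D5:**
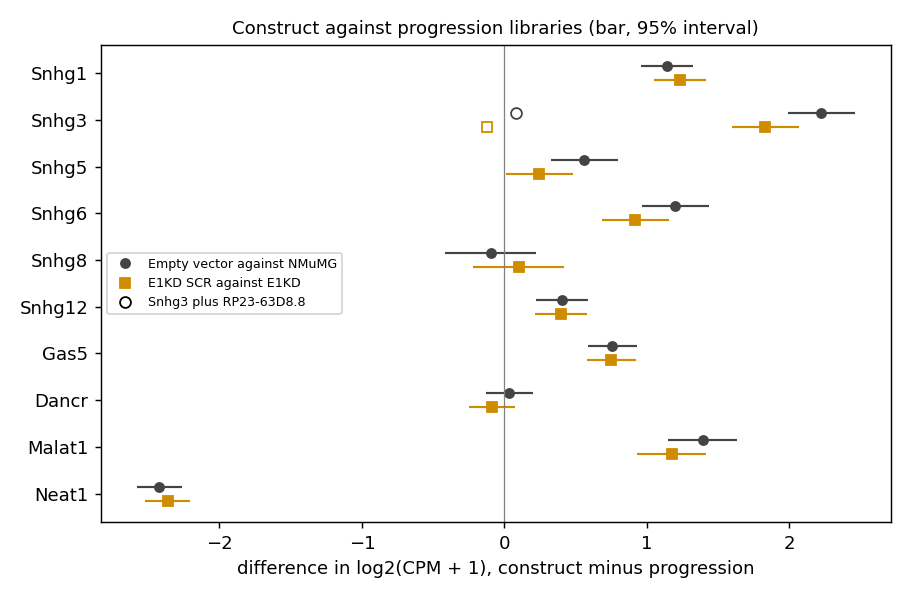
Difference in log2(CPM + 1) between construct and progression libraries for each member (horizontal axis), for the unsilenced controls (circles) and for the hnRNP E1-silenced lines (squares), with 95% intervals; open symbols, without an interval, are Snhg3 summed with RP23-63D8.8. Neat1 lies below -2 and Malat1 above 1 in both comparisons, and the summed Snhg3 lies near 0.

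Between the sets, construct and kind of library cannot be told apart, so these differences describe the libraries. From NMuMG to the empty vector 8 of 10 members passed, against 79.4% of all genes, and from E1KD to E1KD SCR 7 of 10, against 79.8%. The stricter limits were met by 5 members in the former (35.3% of all genes) and 4 in the latter (35%). Neat1 and Malat1 went opposite ways: Neat1 was 5.37-fold lower and Malat1 2.62-fold higher with the empty vector than in NMuMG, and 5.17-fold lower and 2.26-fold higher in E1KD SCR than in E1KD. The ratio of Malat1 to Neat1 was 15.3 and 15.9 with the empty vector against 1.03 and 1.19 in NMuMG, and no construct library had a ratio under 12.6.

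Among the hosts, Snhg1, Snhg6 and Gas5 were higher in the construct set in both comparisons, by 1.14, 1.2 and 0.76 for the unsilenced controls and by 1.23, 0.92 and 0.75 for the silenced lines, and under each scaling. All 10 construct libraries of each of these 3 were above all 10 progression libraries. Snhg12 was higher by 0.41 and 0.40, but with equal library sums its difference for the controls was -0.053. Snhg5 was higher by 0.56 in the controls and did not pass in the silenced lines. Snhg8 and Dancr passed in neither comparison, with log2 differences of -0.10 and 0.04 for the controls, and with equal library sums they were lower by 0.56 and 0.40. Equal sums shifted all genes by -0.48 in that comparison.

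The snoRNAs inside the hosts separated the sets more than the hosts did. Of the 30 snoRNA rows inside members, 1 exceeded 3 reads in a progression library and 9 did so in a construct library, and their summed level was at most 0.501 CPM in the progression set and 470.1 to 743 CPM in the construct set. Snora73a had 0.291 and 0.501 CPM in NMuMG and 327 and 358 CPM with the empty vector. Snord22, inside Snhg1, was at 0 in the 10 progression libraries and at 13.5 to 30.4 CPM in the construct libraries. The 6 snoRNAs among the genes tested reached 1 CPM in construct libraries alone, so the filter fixed their direction and no test between the sets is given for them. Rn7sk had 0.419 to 9.0 CPM in the progression set and 6461 to 10097 CPM in the construct set. The part of these library differences in the levels of Malat1, Neat1 and the hosts was not tested.

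Across the 20 libraries, with the mean of each set taken out of log2(CPM + 1), 7 of the hosts, all but Snhg1, had a Pearson's r of 0.53 to 0.91 to each other. They had -0.78 to -0.12 to Malat1 and -0.53 to 0.24 to Neat1. Pearson's r was 0.91 between Snhg5 and Snhg12, 0.90 between Gas5 and Snhg12, 0.89 between Gas5 and Snhg6, and 0.87 between Snhg3 and Dancr. It was 0.76 between Malat1 and Neat1, -0.78 between Malat1 and Snhg3, 0.24 between Neat1 and Snhg8 and 0.0012 between Neat1 and Snhg6. Snhg1 had 0.12 to Snhg3, 0.75 to Snhg8, 0.40 to Malat1 and 0.70 to Neat1. The genes most like each member on this measure included Pop4 (r = 0.97) and Nop2 (0.97) for Snhg5, Rpl7l1 (0.95) and Wdr43 (0.94) for Dancr, and Trmt112 (0.93) for Snhg1. For Malat1 they included Lrp11 (0.98), and for Neat1 Ivd (0.97) and Ptar1 (0.97). Nop2 and Trmt112 act in ribosomal RNA methylation, and Wdr43 is a nucleolar protein. Libraries of a condition share their line, and the values share scaling, so the correlations are a description over 20 libraries of 10 conditions.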

How the data were processed

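RNA was extracted with Trizol and sequenced on an Illumina HiSeq2500 (single-pass), per the study's methods. The authors aligned reads with Bowtie2 2.2.5 to GRCm38.p6, counted them per gene of the M18 mouse annotation by expectation maximization in Partek, and deposited CPM for 54986 genes with 0.0001 added to each value. Library sums were 0.547 to 0.797 of the full scale. Strand use, and how the 2 kinds of library were made, are not given in the sources used here. Low values were whole multiples of 1 read for 90.3% to 91.6% of values up to 20 reads in the progression set and 96.6% to 97.5% in the construct set (within 0.02 of a read), so whole reads could not be restored and count models were not applied.

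Values were taken to log2(CPM + 1), which understates changes of low genes, and modelled with limma 3.58.1 under R 4.3.3 (10 group means, 20 libraries, 10 residual degrees of freedom, eBayes with a trend, two-sided). p-values were adjusted by Benjamini-Hochberg over the 17106 genes that reached 1 CPM in 2 or more libraries. With 2 libraries against 2, an exact permutation test cannot go below 0.05, so none was used. On simulated data for E1KD against NMuMG over 17106 genes, 94.4% of genes changed by 1 log2 unit and 98.2% of those changed by 2 were recovered. The simulated noise was normal with 1 spread per gene, and only genes with a mean log2(CPM + 1) over 2 were changed. The shift of E1KD replicate 1 was not simulated. Changes under 1 log2 unit were not simulated either, so these shares do not apply to the smaller differences of most hosts. Alternatives were a pseudocount of 0.1, a mean of at least 5 CPM, no filter, 3 other scalings, only the groups compared, the replicate number as a block, no trend, each library left out, and a call at p under 0.001 with a log2 difference of at least 1. Summing Snhg3 with RP23-63D8.8 and the crossed pairing of clone 16 were added after the data were seen. The members and gene lists were chosen with earlier results of these data known. All 10 members were named; of other lists, at most 3 tested genes a comparison and direction with the largest log2 difference, apart from library checks and values named in the text. Likeness was the highest Pearson's r over 20 libraries. Coordinates are those of the table, whose end column is 1 base past the annotated end, and equal those of GENCODE M21 for the 10 members. Tables and figures used Python 3.11.15 with numpy, pandas and matplotlib. For same-numbered replicates, the correlations of their deviations from the group means ran from -0.12 to 0.29, the highest between the 2 clones. With 2 libraries a group these values cannot decide whether replicates were paired, and the main fit held no block.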

Additional observations from a re-analysis of the deposited data

Results flagged for a closer look

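The Platr18 clones differed from each other in 7 members although both were compared with the same empty vector, as tested by the difference between the clones in limma. The log2 differences between clone 16 and clone 12 were -0.28 for Snhg1, -0.49 for Snhg3, -0.33 for Snhg5, -0.81 for Snhg8, -0.34 for Snhg12, -0.71 for Dancr and -0.19 for Neat1. In both replicates Dancr and Snhg8 lay above the empty vector in clone 12 and below it in clone 16.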

How the results depend on the processing

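Of the member values recomputed under the alternatives, 1583 kept their direction and their side of the test, 64 became significant, 81 lost significance and 8 changed sign with the original or the recomputed value past the test. A further 47 changed sign with neither value past the test, among them Neat1 from E1KD to M1P and Snhg8 from NMuMG to E1KD, and the largest of these was 0.20 log2 units in size. Reversed log2 differences were, with equal sums, Snhg12 (-0.053) and Dancr (-0.40) from NMuMG to the empty vector, and Snhg3 summed with its antisense row from E1KD to E1KD SCR (-0.12). In the interaction Snhg12 became 0.20 (median of ratios), 0.19 (equal sums) and 0.21 (protein-coding sums), and Gas5 became 0.20 and 0.22 under the latter pair. With p under 0.001 and a log2 difference of at least 1, the members called were 0 for TGFβ, 3 for E1KD, 1 for M1P, 0 for L1P, 0 for each Platr18 overexpression comparison and between the clones, 3 for E1KD SCR, and 5 and 4 between the sets. With only the groups compared in the fit they were 3 for E1KD, 0 for M1P, 5 for L1P, 8 for clone 16 and 2 for Platr18 KD. Median of ratios, equal sums and protein-coding sums gave 8, 10 and 8 for clone 16, 1, 3 and 2 for Platr18 KD, and 3, 4 and 4 for the interaction. With 1 library left out, where the lone library is assumed to vary like the other groups, the counts ran from 4 to 7 for the mean of the clones, 5 to 8 for clone 12, 1 to 2 for clone 16, 4 to 6 between the clones and 0 to 4 for the interaction. The cause of these moves was not tested. With the replicate number as a block, which the labels do not tie to a shared culture, as many members passed in every comparison as without it (10 for TGFβ, 8 for E1KD), and the crossed block of clone 16 left 7 for the clones and 5 for clone 16. Depth limits little here, since the lowest value of any member was 4.21 CPM, but with 2 libraries a group the standard errors of the differences between single groups were 0.074 to 0.15 log2 units.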
